A study of Mus musculus with 10 samples.

Results

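Excitation-contraction coupling and calcium store genes were examined in RNA-sequencing libraries of C2C12 cells, a mouse myoblast line that fuses into myotubes when serum is lowered. The 10 genes were chosen by symbol: *Cacna1s*, *Cacnb1*, *Stac3*, *Ryr1*, *Jph1*, *Trdn*, *Atp2a1*, *Atp2a2*, *Casq1* and *Casq2*. They are 10 of the 55359 genes in the deposited table, and all 10 were among the 13548 genes that were tested. The study asked what knockdown of *Fndc1*, which encodes a secreted protein with fibronectin type III domains, does to myogenic differentiation. The si-*Fndc1* group held 5 libraries from cells given an siRNA against *Fndc1*, and the si-Control group held 5 libraries from cells given a control siRNA. Both groups carried the same cell line, 100 nM of siRNA and 4 days of differentiation in 2% horse serum according to the sample labels, whereas the description of the series gives a shorter time. The model is 1 established cell line grown in culture, without nerve or adult fibres.

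In skeletal muscle, an action potential runs into the transverse tubules and moves the voltage sensor, an L-type calcium channel, which opens the ryanodine receptor of the neighbouring sarcoplasmic reticulum by direct coupling. Calcium leaves the store through that receptor, starts contraction and is pumped back by the SERCA pumps, while calsequestrin binds it inside the store. Fast fibres, slow fibres and heart muscle use different isoforms of several of these proteins, and cultured myotubes often express the adult and the cardiac or slow isoforms together.

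The level of *Fndc1* itself was 27.8 ± 2.04 FPKM in si-Control and 20.9 ± 1.70 FPKM in si-*Fndc1* (SD, n = 5 per group), and the ranges of the groups did not overlap. FPKM divides a gene's count by its length and by library size. The log2 fold change of *Fndc1* was -0.40 (SE 0.07, adjusted p = 0.000934 in edgeR's quasi-likelihood test), so the target was lowered and not removed. With GC content and length corrected it was -0.21 (adjusted p = 0.0129, edgeR). Library totals were 66771605 to 75995168 counts in si-Control and 56332844 to 72839369 counts in si-*Fndc1*. The sources do not say whether the libraries came from separate cultures, so p-values measure the spread between these libraries, which may be technical. The cells are labelled as myoblasts, but all 12 myotube markers were detected, with a summed level of 7511 to 7856 FPKM in si-Control and 7834 to 8610 FPKM in si-*Fndc1*. Most of that sum was *Mylpf* (means of 1971 FPKM in si-Control and 2619 FPKM in si-*Fndc1*), *Acta1* (1898 and 1978) and *Tnnc1* (1425 and 1494). The median log2 fold change of the 12 markers was -0.003. Of these markers *Ckm* (log2 fold change 0.39), *Mymk* (0.26) and *Mylpf* (0.42) rose, *Ttn* fell (-0.45), and the other 8 did not pass the test (*Myog*, *Myh3*, *Myh8*, *Acta1*, *Tnnt3*, *Actn2*, *Des* and *Tnnc1*). With GC content and length corrected, as described further on, *Ttn* stood at 0.08, *Mymk* lost its call (0.21, adjusted p = 0.0916, edgeR), and *Myog* was called lower (-0.17, adjusted p = 0.0303) and *Des* higher (0.11, adjusted p = 0.0216). In bulk RNA, fewer myotubes and less RNA per myotube cannot be told apart.

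Of the 10 genes, *Ryr1*, *Cacnb1*, *Atp2a1* and *Casq2* were lower in si-*Fndc1*, *Casq1* was higher, and *Cacna1s*, *Stac3*, *Jph1*, *Trdn* and *Atp2a2* did not pass the test (edgeR's quasi-likelihood test, Benjamini-Hochberg adjusted p under 0.05). Over all tested genes 34.4% were called, 17.2% as lower and 17.3% as higher. The median log2 fold change of the 10 genes was -0.17, and that of all tested genes was 0.0043. Separate FPKM ranges in the 2 groups were seen for 2 of the 10 genes, *Cacnb1* and *Casq2*, both lower in si-*Fndc1*. The same held for 25.1% of all tested genes in either direction and for 13% with the lower level in si-*Fndc1*, so a count of 2 in 10 is near the background. DESeq2 called 7 of the 10 genes, 5 lower and 2 higher, against 37% of all tested genes.

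**Figure D1:**
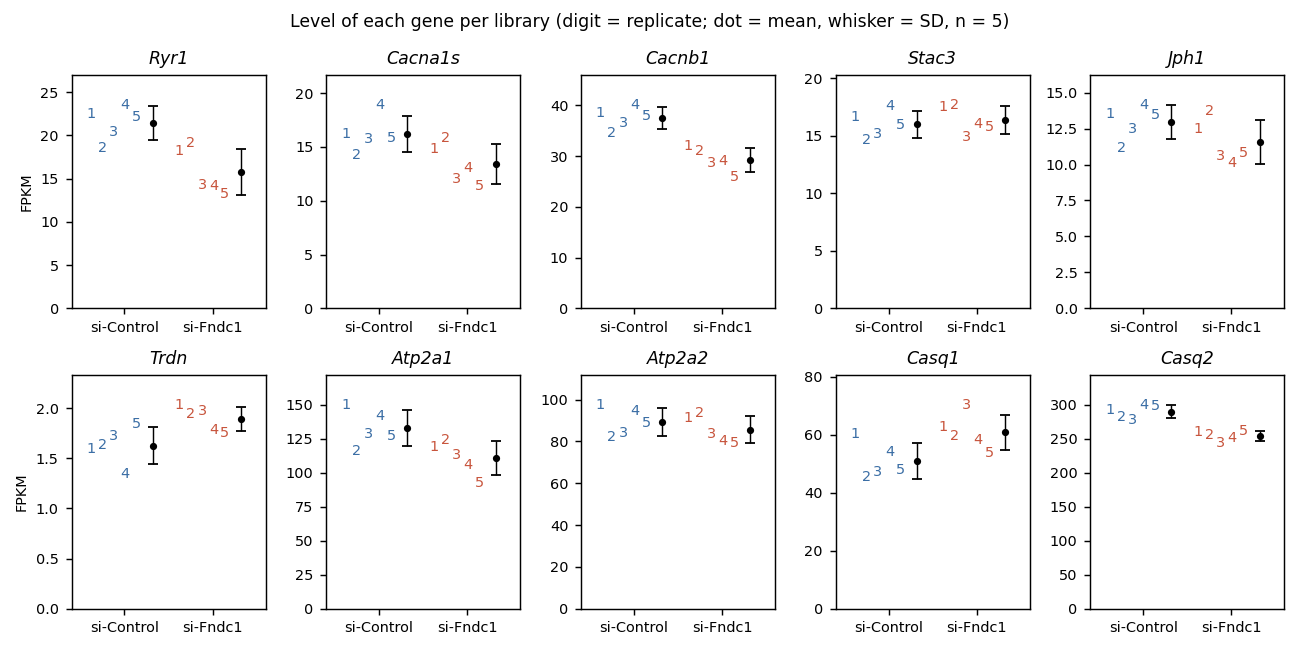
Level of each of the 10 genes in every library, in FPKM on linear axes that start at 0, with each digit standing for the replicate number and the dot and whisker for the mean and SD of 5 libraries. The si-Control and si-Fndc1 ranges are separate for Cacnb1 and Casq2 and overlap for the other 8 genes.

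The voltage sensor complex was represented by its pore, its beta subunit and an adaptor. *Cacna1s* (ENSMUSG00000026407, listed at chr1:135980488-136047560 on the plus strand) encodes the pore-forming subunit whose charged segments sense the membrane potential. Its level in si-Control replicates 1 to 5 was 16.24, 14.22, 15.78, 18.89 and 15.84 FPKM, and in si-*Fndc1* replicates 1 to 5 it was 14.84, 15.84, 12.02, 13.03 and 11.37 FPKM. si-*Fndc1* replicates 1 and 2 lay within the si-Control range and the other 3 lay below it. The means were 16.2 ± 1.69 and 13.4 ± 1.88 FPKM (SD, n = 5 per group), and the log2 fold change of -0.26 (SE 0.10) did not pass the test (adjusted p = 0.0612 in edgeR's quasi-likelihood test). Of 22 alternative settings, 18 left *Cacna1s* uncalled as well. It passed in 4, among them DESeq2 (adjusted p = 0.0266) and scaling to the myotube markers (adjusted p = 0.0161, edgeR). The rest were 2 edgeR fits that each left out 1 library. Dropping replicate 2 of si-*Fndc1* gave -0.33 (adjusted p = 0.0195), and dropping replicate 2 of si-Control gave -0.31 (adjusted p = 0.0382). The log2 fold change corrected for GC content and length was -0.11 (adjusted p = 0.387, edgeR).

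*Cacnb1* (ENSMUSG00000020882, listed at chr11:97892334-97913460 on the minus strand) encodes the beta subunit that brings the pore to the triad membrane. The si-Control replicates 1 to 5 had levels of 38.52, 34.48, 36.52, 40.06 and 37.99 FPKM, and the si-*Fndc1* replicates 1 to 5 had 31.92, 30.97, 28.57, 29.0 and 25.95 FPKM. The highest si-*Fndc1* library was still under the lowest si-Control library. The mean fell by 21.9%, from 37.5 ± 2.12 to 29.3 ± 2.32 FPKM (SD, n = 5 per group), and edgeR's quasi-likelihood test gave a log2 fold change of -0.35 (SE 0.06, adjusted p = 0.00111). The two-sided exact permutation test on FPKM gave p = 0.00794, the smallest that 5 against 5 libraries allow. The call was lost with GC content and length corrected, where the log2 fold change was -0.10 (adjusted p = 0.197, edgeR).

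*Stac3* (ENSMUSG00000040287, listed at chr10:127337555-127344692 on the plus strand) encodes the adaptor that holds the voltage sensor in its working form. Its level in si-Control replicates 1 to 5 was 16.63, 14.67, 15.14, 17.62 and 15.95 FPKM, and in si-*Fndc1* replicates 1 to 5 it was 17.52, 17.68, 14.91, 16.05 and 15.75 FPKM. The groups overlapped almost fully. The log2 fold change was 0.04 (SE 0.06, adjusted p = 0.648 in edgeR's quasi-likelihood test). It passed no threshold under any of the 22 alternative settings that were run for it, which gave log2 fold changes from 0.01 to 0.13.

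The release channel and the proteins that place it at the triad were described next. *Ryr1* (ENSMUSG00000030592, listed at chr7:28702769-28824604 on the minus strand) encodes the skeletal ryanodine receptor. The si-Control replicates 1 to 5 had levels of 22.45, 18.52, 20.36, 23.5 and 22.14 FPKM, and the si-*Fndc1* replicates 1 to 5 had 18.16, 19.17, 14.29, 14.13 and 13.17 FPKM. si-*Fndc1* replicate 2 lay within the si-Control range and the other 4 si-*Fndc1* libraries lay below it. The mean fell by 26.2%, from 21.4 ± 1.97 to 15.8 ± 2.69 FPKM (SD, n = 5 per group), and edgeR's quasi-likelihood test gave a log2 fold change of -0.43 (SE 0.11, adjusted p = 0.01095). Among the 10 genes it had the log2 fold change farthest from 0. The length implied by its count and FPKM, 24.3 kb, was the largest of them, and its GC content was 58.0%. With GC content and length corrected the log2 fold change was 0.01 (adjusted p = 0.952, edgeR). The call held with length alone corrected (-0.27, adjusted p = 0.0187, edgeR). It was lost with GC content alone corrected (-0.27, adjusted p = 0.0836, edgeR).

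*Jph1* (ENSMUSG00000042686, listed at chr1:17034784-17168113 on the minus strand) encodes junctophilin 1, which ties the transverse tubule to the sarcoplasmic reticulum. Its level in si-Control replicates 1 to 5 was 13.51, 11.17, 12.48, 14.13 and 13.46 FPKM, and in si-*Fndc1* replicates 1 to 5 it was 12.49, 13.75, 10.58, 10.08 and 10.79 FPKM. si-*Fndc1* replicates 3, 4 and 5 lay below every si-Control library and the other 2 lay within the si-Control range. The log2 fold change of -0.16 (SE 0.09) did not pass the test (adjusted p = 0.204 in edgeR's quasi-likelihood test), except without si-*Fndc1* replicate 2, where it was -0.23 (adjusted p = 0.0452).

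*Trdn* (ENSMUSG00000019787, listed at chr10:32956550-33352705 on the plus strand) encodes triadin, the membrane protein that links calsequestrin to the ryanodine receptor. The si-Control replicates 1 to 5 had levels of 1.595, 1.634, 1.718, 1.342 and 1.842 FPKM, and the si-*Fndc1* replicates 1 to 5 had 2.027, 1.939, 1.968, 1.782 and 1.754 FPKM. si-*Fndc1* replicates 1, 2 and 3 lay above every si-Control library and the other 2 lay within the si-Control range. *Trdn* was the lowest of the 10 genes, with 1018 to 1495 counts per library. Its log2 fold change of 0.23 (SE 0.08) missed the threshold (adjusted p = 0.0569 in edgeR's quasi-likelihood test), although the two-sided exact permutation test on FPKM gave an unadjusted p of 0.0317. *Trdn* passed in 4 of 21 alternative settings, among them DESeq2 (adjusted p = 0.0377). The rest were edgeR fits without si-Control replicate 5 (adjusted p = 0.0289) and with length alone corrected (adjusted p = 0.0240). The last was the uncorrected edgeR fit of genes with known GC content and length (adjusted p = 0.0458). With GC content and length corrected the log2 fold change was 0.04, and with GC content alone corrected it was -0.037.

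The calcium pumps came as a fast-fibre and a slow or cardiac isoform. *Atp2a1* (ENSMUSG00000030730, listed at chr7:126045030-126062280 on the minus strand) encodes SERCA1, the pump of fast fibres. Its level in si-Control replicates 1 to 5 was 149.4, 115.8, 128.7, 141.7 and 126.9 FPKM, and in si-*Fndc1* replicates 1 to 5 it was 118.9, 124.1, 112.6, 105.6 and 92.33 FPKM. si-*Fndc1* replicates 1 and 2 lay within the si-Control range and replicates 3, 4 and 5 lay below it. The mean fell by 16.5%, from 132.5 ± 13.2 to 110.7 ± 12.4 FPKM (SD, n = 5 per group), and edgeR's quasi-likelihood test gave a log2 fold change of -0.25 (SE 0.09, adjusted p = 0.0477). The call was lost in 8 of 10 fits that left out 1 library, and held only without si-Control replicate 2 (adjusted p = 0.0237) or without si-*Fndc1* replicate 2 (adjusted p = 0.0279). The corrected log2 fold change was -0.14 (adjusted p = 0.295, edgeR). The gene overlaps *Rabep2* on the opposite strand, whose own counts reached 6.65% of those of *Atp2a1*, and strand use in the counting is not stated.

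*Atp2a2* (ENSMUSG00000029467, listed at chr5:122591576-122640237 on the minus strand) encodes SERCA2, the pump of slow fibres and heart muscle. The si-Control replicates 1 to 5 had levels of 97.22, 82.02, 83.98, 94.43 and 88.83 FPKM, and the si-*Fndc1* replicates 1 to 5 had 91.29, 93.53, 83.54, 80.23 and 79.17 FPKM. si-*Fndc1* replicates 1, 2 and 3 lay within the si-Control range and replicates 4 and 5 lay just below it. The log2 fold change was -0.05 (SE 0.06, adjusted p = 0.542 in edgeR's quasi-likelihood test).

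Because a ratio of 2 genes within a library does not depend on library size, the isoforms were also compared as ratios of FPKM. The *Atp2a1* to *Atp2a2* ratio in si-Control replicates 1 to 5 was 1.537, 1.412, 1.533, 1.5 and 1.429, and in si-*Fndc1* replicates 1 to 5 it was 1.302, 1.326, 1.348, 1.317 and 1.166. No si-*Fndc1* library reached the si-Control range, with means of 1.29 ± 0.0723 and 1.48 ± 0.0584 (SD, n = 5 per group). The difference in log2 ratio was -0.20 (two-sided exact permutation test, p = 0.00794). The fast pump transcript was lower relative to the slow one in these FPKM values, but with GC content and length corrected the difference was -0.08 (p = 0.103, same exact test). The *Ryr1* to *Ryr3* ratio, where *Ryr3* encodes the minor ryanodine receptor of developing muscle, was 15.6 ± 1.30 in si-Control and 14.2 ± 1.09 in si-*Fndc1*, with overlapping groups (difference in log2 ratio -0.135, two-sided exact permutation p = 0.0952, and 0.115 after the correction). *Cacna1c*, the cardiac counterpart of *Cacna1s*, had 0 to 10 counts per library, so no ratio was formed with it.

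**Figure D2:**
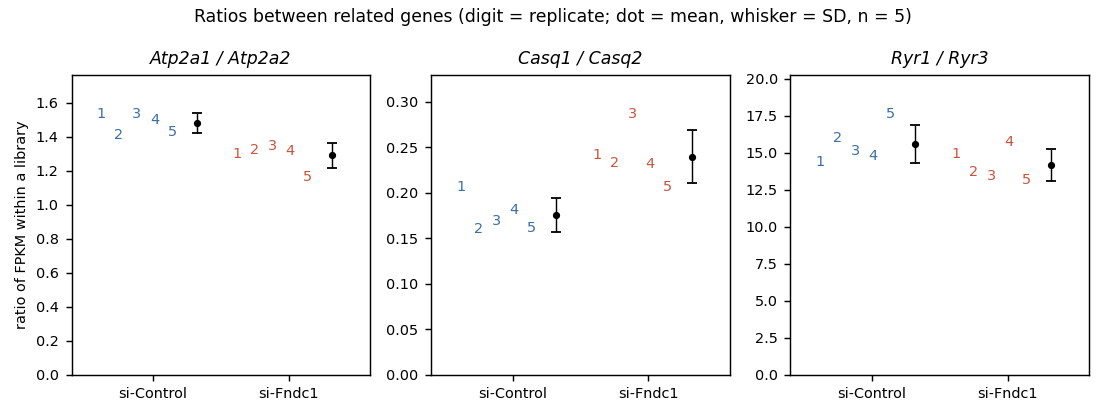
Ratios of FPKM between related genes in every library, on linear axes that start at 0, with digits for replicate numbers and the dot and whisker for the mean and SD of 5 libraries. The Atp2a1 to Atp2a2 ratio is lower in all 5 si-Fndc1 libraries than in all si-Control libraries, and the other ratios overlap.

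The store protein calsequestrin was present in both isoforms, and they differed in direction. *Casq1* (ENSMUSG00000007122, listed at chr1:172037461-172047435 on the minus strand) encodes the isoform of fast fibres, and *Casq2* (ENSMUSG00000027861, listed at chr3:101993731-102053830 on the plus strand) the isoform of heart and slow fibres. The level of *Casq1* in si-Control replicates 1 to 5 was 60.09, 45.24, 46.96, 54.05 and 47.95 FPKM, and in si-*Fndc1* replicates 1 to 5 it was 62.69, 59.46, 70.1, 58.03 and 53.73 FPKM. si-Control replicate 1 lay within the si-*Fndc1* range, and so did si-Control replicate 4. The mean rose by 19.6%, from 50.9 ± 6.14 to 60.8 ± 6.12 FPKM (SD, n = 5 per group), and edgeR's quasi-likelihood test gave a log2 fold change of 0.27 (SE 0.09, adjusted p = 0.0421), while the two-sided exact permutation test on FPKM gave p = 0.0556. The call was lost in 8 of 10 fits that left out 1 library, and held only without si-Control replicate 1 (adjusted p = 0.0111) or without si-*Fndc1* replicate 5 (adjusted p = 0.0257). The corrected log2 fold change was 0.18 (adjusted p = 0.206, edgeR).

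The level of *Casq2* in si-Control replicates 1 to 5 was 292.0, 282.0, 277.9, 299.4 and 298.2 FPKM, and in si-*Fndc1* replicates 1 to 5 it was 259.9, 255.5, 244.5, 250.7 and 261.2 FPKM. The highest si-*Fndc1* library was still under the lowest si-Control library. The mean fell by 12.3%, from 289.9 ± 9.62 to 254.4 ± 6.88 FPKM (SD, n = 5 per group), and edgeR's quasi-likelihood test gave a log2 fold change of -0.18 (SE 0.03, adjusted p = 0.00109). Of the 5 called genes it alone kept its call under every alternative run for it, and the correction moved the log2 fold change to -0.31 (adjusted p = 0.000127, edgeR). Its counts per library were 44648 to 67562.

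The *Casq1* to *Casq2* ratio in si-Control replicates 1 to 5 was 0.2058, 0.1604, 0.169, 0.1805 and 0.1608, and in si-*Fndc1* replicates 1 to 5 it was 0.2412, 0.2327, 0.2867, 0.2315 and 0.2057. The groups touched at si-Control replicate 1 and si-*Fndc1* replicate 5, and every other si-*Fndc1* library lay above every si-Control library. The means were 0.175 ± 0.0189 and 0.240 ± 0.0295 (SD, n = 5 per group), and the ratio in si-*Fndc1* was 1.37 times that in si-Control (difference in log2 ratio 0.45, two-sided exact permutation test, p = 0.0159). With GC content and length corrected the difference was 0.49 (p = 0.00794, same exact test). *Casq2* was the more abundant isoform per length in every library of both groups.

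RefSeq promoters of build GRCm38.p6 were available for 6 of the 10 genes (*Cacna1s*, *Cacnb1*, *Ryr1*, *Atp2a1*, *Casq1* and *Casq2*), and the 250 bases before the transcription start were searched for E-boxes, the letters CANNTG that myogenic factors such as MyoD and myogenin bind, which read the same on both strands. An E-box was found in 66.2% of the 32851 promoter windows of the table, and the form CAGCTG in 13.0%. The windows of *Casq1*, *Casq2* and *Cacna1s* held 2 E-boxes each, that of *Atp2a1* held 1, *Cacnb1* held 1 and 0 at its 2 starts, and *Ryr1* held 0. The form CAGCTG, which is contained in the E-box count, was found for *Casq1*, *Atp2a1* and *Cacna1s*. The MEF2 motif was searched in a strict form only, which was found in none of these windows and in 0.508% of all windows. Looser forms of the motif were not searched, so whether these windows lack a MEF2 site was not tested. In the uncorrected fit the calsequestrin pair differed in direction, and *Ryr1* and *Atp2a1* were both lower. With GC content and length corrected, only *Casq2* of these genes kept its call. The windows of *Cacna1s* and *Cacnb1* are not shown. The windows of *Casq1*, *Casq2*, *Ryr1* and *Atp2a1* are given 5' to 3' on the strand of the gene, with E-boxes in capitals. They span chr1:172219896-172220145 (minus strand) for *Casq1*, chr3:102086165-102086414 (plus) for *Casq2*, chr7:29125152-29125401 (minus) for *Ryr1* and chr7:126463074-126463323 (minus) for *Atp2a1*.
Casq1: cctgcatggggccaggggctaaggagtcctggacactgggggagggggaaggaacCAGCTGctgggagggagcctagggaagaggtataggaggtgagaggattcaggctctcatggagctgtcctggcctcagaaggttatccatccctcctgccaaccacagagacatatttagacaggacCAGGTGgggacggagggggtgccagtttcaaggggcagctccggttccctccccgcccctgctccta
Casq2: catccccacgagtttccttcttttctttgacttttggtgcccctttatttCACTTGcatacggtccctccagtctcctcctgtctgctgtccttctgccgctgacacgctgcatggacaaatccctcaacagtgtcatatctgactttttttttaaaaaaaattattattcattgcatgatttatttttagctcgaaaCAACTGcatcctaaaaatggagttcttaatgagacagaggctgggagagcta
Ryr1: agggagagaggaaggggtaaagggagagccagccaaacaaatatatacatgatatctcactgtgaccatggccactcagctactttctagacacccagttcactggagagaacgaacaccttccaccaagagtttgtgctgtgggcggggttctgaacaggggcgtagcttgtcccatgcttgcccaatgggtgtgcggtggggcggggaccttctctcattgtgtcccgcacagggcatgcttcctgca
Atp2a1: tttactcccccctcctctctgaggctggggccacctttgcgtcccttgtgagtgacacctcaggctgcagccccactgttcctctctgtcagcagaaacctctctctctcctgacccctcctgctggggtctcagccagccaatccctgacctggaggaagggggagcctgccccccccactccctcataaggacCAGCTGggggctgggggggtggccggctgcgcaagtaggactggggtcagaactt
A match in these letters is a description of the sequence and not a measured binding site.

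By level per length, the order in si-Control was *Casq2*, *Atp2a1*, *Atp2a2*, *Casq1*, *Cacnb1*, *Ryr1*, *Cacna1s*, *Stac3*, *Jph1* and *Trdn*. The mean FPKM of *Casq2* was 2.19 times that of *Atp2a1*, and that of *Jph1* was 7.96 times that of *Trdn*. The ranges of *Ryr1* and *Cacna1s* overlapped among the si-Control libraries, although *Ryr1* was the higher of the pair in each of the 5. The ranges of *Cacna1s* and *Stac3* overlapped too, with means of 16.2 ± 1.69 and 16.0 ± 1.18 FPKM, so these neighbours did not differ beyond their spread. *Atp2a1* lay above *Atp2a2* within each of the 10 libraries, and the ranges of the pair were separate in si-Control and overlapped in si-*Fndc1*. Among these 10 genes, the pumps and calsequestrins stood above the others in FPKM.

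Fold changes in these libraries moved with the base composition of the transcripts. Over the 11185 tested genes with a known GC content and length, Spearman's rho of the log2 fold change with GC content was -0.52, and with length it was -0.20. These are correlations across genes, which are not independent replicates. The GC content of the 10 genes ran from 36.8% for *Trdn* to 59.7% for *Cacnb1*, and across the 10 genes rho with GC content was -0.66. After a smooth function of GC content and length was removed from each library, rho over all genes was -0.0064 with GC content and 0.03 with length. In that fit 22.5% of genes were called, 12.4% as higher and 10.1% as lower, against 0 higher and 1 lower of the 10 genes, *Casq2*, and their median log2 fold change was -0.02. With GC content alone corrected 2 of the 10 genes were called, against 26.2% of all genes, and with length alone 4, against 39.2%. Whether the relation with GC content arose in the cells or in library preparation was not tested.

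**Figure D3:**
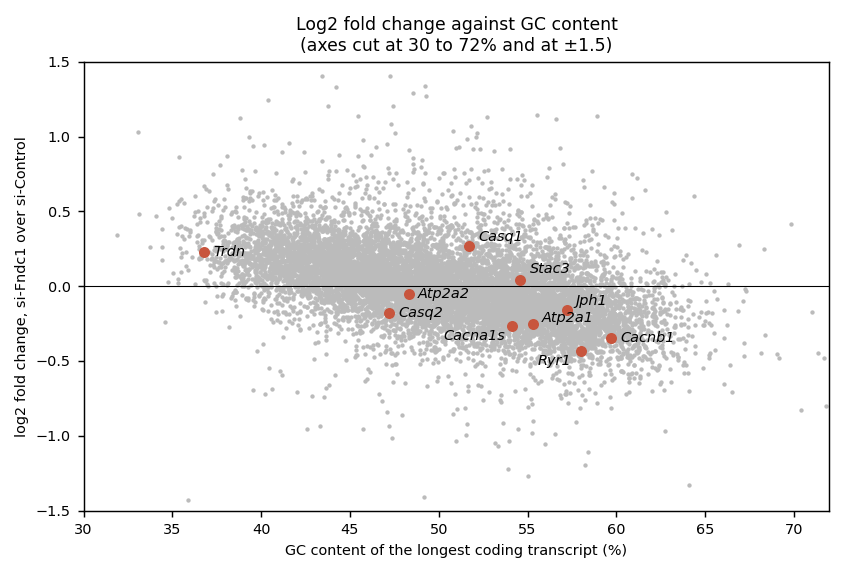
Log2 fold change of si-Fndc1 over si-Control against the GC content of the longest coding transcript, in percent, with grey points for tested genes and named points for the 10 genes. Log2 fold changes fall as GC content rises over all genes (rho -0.52).

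**Figure D4:**
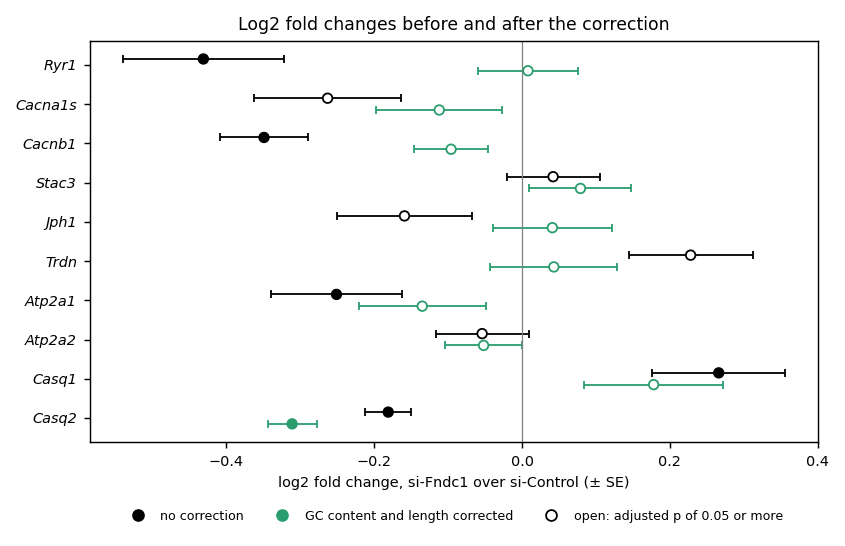
Log2 fold change of each of the 10 genes with its error, before and with GC content and length corrected. Ryr1 moves from -0.43 to 0.01 and Cacnb1 from -0.35 to -0.10, whereas Casq2 moves from -0.18 to -0.31.

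In most libraries the majority of the 10 genes deviated from the group mean in 1 direction. In si-*Fndc1*, replicate 2 had 9 of 10 genes above the group mean and replicate 1 had all 10, whereas replicate 4 had all 10 below it and replicate 5 had 9 below it. The mean deviation over the genes was 0.14 in si-*Fndc1* replicate 2 and -0.15 in si-*Fndc1* replicate 5 on the log2 scale. In si-Control, replicates 1 and 4 had 9 of 10 genes above the group mean and replicates 2 and 3 had 9 below it. si-Control replicate 5 was mixed, with 6 above and 4 below, as was si-*Fndc1* replicate 3, with 3 above and 7 below, and *Trdn* stood at -0.27 in si-Control replicate 4 while the other genes were above their mean. The 12 myotube markers deviated by 0.07 in si-*Fndc1* replicate 2 and by -0.15 in si-*Fndc1* replicate 5, and by 0.07 in si-Control replicate 1 and -0.06 in si-Control replicate 2. The part of this spread in the results was not tested.

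Markers of other cell types were read beside these results. Of 7 cardiomyocyte markers 5 had a mean over the 10 libraries under 0.5 FPKM and *Myl7* had no counts, with a summed level of 3.73 to 4.81 FPKM in si-Control and 3.19 to 3.98 FPKM in si-*Fndc1*. All 8 hepatocyte markers were higher in si-*Fndc1*, with a summed level of 0.0008 to 5.08 FPKM in si-Control and 41.7 to 154.9 FPKM in si-*Fndc1*. Among the si-*Fndc1* libraries that sum was lowest in replicate 5 (41.7 FPKM) and highest in replicate 2 (154.9 FPKM), and its part in the values of the 10 genes was not tested. The summed smooth muscle markers were at 1039 to 1091 and 1063 to 1102 FPKM, most of it *Acta2*, while *Smtn* was lower (log2 fold change -0.31, adjusted p = 0.000411, edgeR) and *Cnn1* higher (0.26, adjusted p = 0.0415). The neuron markers summed to 8.16 to 9.41 and 9.42 to 12.06 FPKM with *Snap25* and *Rbfox3* at 0 counts, and nearly all of it was *Stmn2*, which was higher (0.31, adjusted p = 0.00753, edgeR). The endothelial markers summed to no more than 0.0334 FPKM with *Cdh5* at 0 counts.

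A list of 71 further genes of calcium handling, ordered by role, was read in the same fit. Of these 53 were tested, 6 were higher, 12 were lower and 35 did not pass, against a background of 34.4% called. Their median log2 fold change was -0.06. With GC content and length corrected 9 were higher and 9 were lower, with a median of 0.01, beside 12.4% higher and 10.1% lower over all genes of that fit.

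Among 6 tested subunits of voltage-gated channels and their adaptors, *Stac2*, a relative of *Stac3*, fell from 31.9 ± 1.01 to 26.2 ± 0.981 FPKM (SD, n = 5 per group), a log2 fold change of -0.28 in edgeR (adjusted p = 0.000193). *Cacng1*, the gamma subunit of the skeletal channel, rose from 89.7 ± 1.27 to 103.6 ± 4.87 FPKM (0.22 on the log2 scale, adjusted p = 0.000953 in edgeR). The groups did not overlap for either *Stac2* or *Cacng1*. Both kept their calls with GC content and length corrected together, but *Cacng1* lost its call with length alone corrected (0.09, adjusted p = 0.0562, edgeR).

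Among 11 tested release channels and modulators, the inositol trisphosphate receptor genes *Itpr1* (log2 fold change -0.19, adjusted p = 0.0174), *Itpr2* (-0.36, adjusted p = 4.4e-05) and *Itpr3* (-0.20, adjusted p = 0.00524, all edgeR) were lower, but after the correction *Itpr3* was called higher (0.09, adjusted p = 0.0357, edgeR) and *Itpr1* stood at 0.01 with no call (adjusted p = 0.913, edgeR), while *Itpr2* remained lower (-0.19, adjusted p = 0.0127, edgeR). *Calm2*, which encodes calmodulin, was higher (0.24, adjusted p = 0.0249, edgeR), and stood at -0.11 after the correction. Its call was also lost without si-Control replicate 1 (adjusted p = 0.0516), without si-*Fndc1* replicate 4 (adjusted p = 0.0558) and without si-*Fndc1* replicate 5 (adjusted p = 0.0594). *Ryr3* was at 1.38 ± 0.191 FPKM in si-Control and 1.11 ± 0.195 FPKM in si-*Fndc1* (adjusted p = 0.0939, edgeR), and the cardiac receptor *Ryr2* had 0 to 12 counts per library.

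Among 9 tested triad genes, *Jsrp1*, whose protein JP-45 binds both the voltage sensor and calsequestrin, fell from 76.04 ± 1.83 to 59.3 ± 0.860 FPKM (SD, n = 5 per group), a log2 fold change of -0.35 in edgeR (adjusted p = 2e-05). Its groups did not overlap, and the corrected value was -0.25 (adjusted p = 0.000129, edgeR). *Dysf*, which encodes the membrane repair protein dysferlin, was lower too (-0.28, adjusted p = 0.00976, edgeR), but not after the correction (-0.05). *Jph2*, the other muscle junctophilin, stood at 78.6 ± 3.52 and 75.0 ± 5.81 FPKM, and was called higher only after the correction (0.23, adjusted p = 0.00422, edgeR), as were *Bin1* (0.25, adjusted p = 0.0005) and *Asph* (0.14, adjusted p = 0.0455). *Tmem38a* was called lower only after it (-0.20, adjusted p = 0.0455, edgeR). The corrected counts of triad genes were thus 3 higher and 2 lower, beside 12.4% higher and 10.1% lower over all genes of that fit.

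Of the pump regulators only *Mrln*, which encodes the SERCA inhibitor myoregulin, was tested. *Pln*, which encodes phospholamban, had no counts in any library, *Sln* (sarcolipin) had 0 to 4 counts and *Strit1* had 0 to 7. Of 5 tested store buffers only *Calr*, which encodes calreticulin, was higher, from 422.4 ± 5.53 to 453.8 ± 19.2 FPKM (0.11 on the log2 scale, adjusted p = 0.0308 in edgeR). The call of *Calr* was lost after the correction (0.06, adjusted p = 0.22, edgeR), where *Srl*, which encodes the store protein sarcalumenin, was called instead (0.19, adjusted p = 0.0368), and when libraries were scaled to the myotube markers (adjusted p = 0.15). When 1 library was left out, the call of *Calr* held only without si-Control replicate 2 (adjusted p = 0.0412) or without si-*Fndc1* replicate 5 (adjusted p = 0.00265). Of the 5 tested genes of store-operated entry 0 were called in edgeR, beside 34.4% of all tested genes. After the correction 1 was called, the calcium sensor *Stim2* (-0.17, adjusted p = 0.0325, edgeR), beside 22.5% of all genes of that fit.

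Among 10 tested genes of extrusion, cytosolic buffering and mitochondrial uptake, *Micu2* (0.22, adjusted p = 0.000184), *Mcub* (0.35, adjusted p = 0.0106) and *Micu3* (0.59, adjusted p = 0.0362) were higher in edgeR, and these encode regulators of the mitochondrial calcium uniporter. The plasma membrane pump *Atp2b4* was lower (-0.30, adjusted p = 0.000245, edgeR). Of the genes of sarcolemma excitability, the skeletal sodium channel *Scn4a* was lower (-0.39, adjusted p = 0.0309, edgeR). In the corrected fit *Micu2* kept its call (0.11, adjusted p = 0.0116) and so did *Atp2b4* (-0.18, adjusted p = 0.00626), whereas *Mcub* (0.22, adjusted p = 0.0663), *Micu3* (0.41, adjusted p = 0.157) and *Scn4a* (-0.22, adjusted p = 0.172) did not pass in edgeR. The call of *Micu3* was also lost without si-Control replicate 5 or without any 1 of the si-*Fndc1* libraries (adjusted p from 0.0553 to 0.0733), and that of *Scn4a* without si-Control replicate 1, 3 or 4 or si-*Fndc1* replicate 3, 4 or 5 (adjusted p from 0.0547 to 0.0722).

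**Figure D5:**
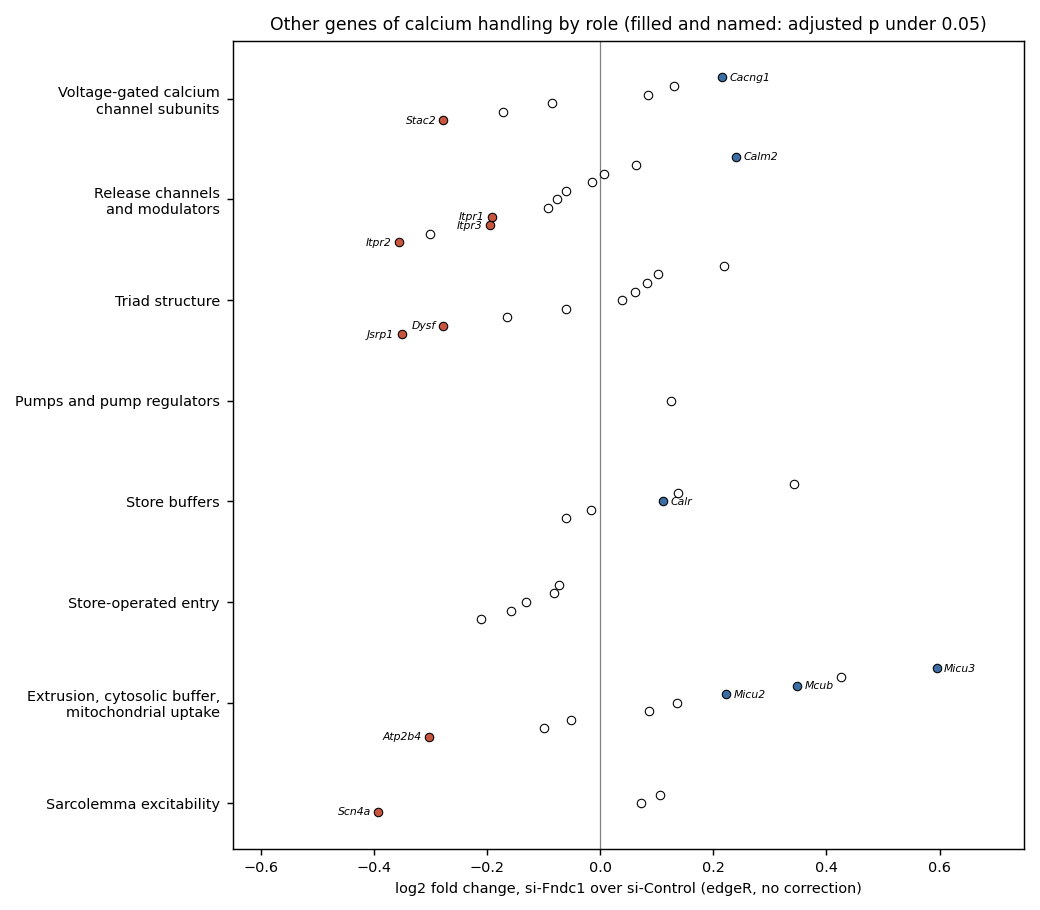
Log2 fold change of tested genes of the calcium handling list, without the few not reported here, in one row of points per role, with filled and named points for genes past an adjusted p of 0.05 in edgeR. Jsrp1 lies at -0.35 and Cacng1 at 0.22, and store-operated entry has no called gene.

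For each of the 10 genes, the tested genes with the most similar profile were found by the root mean square difference of centred log2 CPM over 10 libraries. For *Ryr1* these were *Myo18b* (0.05) and *Adcy9* (0.07), and for *Cacna1s* they were *Ncam1* (0.06) and *Kcnn3* (0.06). *Ncam1* was also among the nearest of *Atp2a1* (0.05), together with *Etv3* (0.05). For *Cacnb1* they were *Adamts14* and *Smtn* (both 0.04), and for *Atp2a2* they were *Myom1* and *Itga6* (both 0.04). *Casq2* had *Csf1* and *Sec61a1* (both 0.03), and *Casq1* had *Zcchc4* (0.07) and *Mttp* (0.08). For *Stac3* they were *Naca* and *Cdc73* (both 0.04), for *Jph1* *Camk2d* and *Ccdc6* (both 0.04), and for *Trdn* *Ttc8* (0.07) and *Rabl3* (0.075).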

How the data were processed

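RNA-sequencing was done on 10 C2C12 libraries, 5 si-Control and 5 si-*Fndc1*, grouped by their labels. The paper's methods speak of 4 libraries without saying which, so all 10 were used. The authors deposited raw read counts per gene and FPKM values for 55359 genes in 1 table. No column of values was without a sample (0 columns). The paper's methods name TopHat, htseq-count and mm10, the series record gives STAR with mm9, and the submitters' processing notes name GRCm39, cutadapt 1.9 and FastQC, so coordinates are given as the table lists them, with no build. The authors list FPKM as 0.0001 where nothing was counted, which was so in every library for 26407 genes.

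The deposited counts were tested with edgeR 4.0.16 (TMM, quasi-likelihood, Benjamini-Hochberg over the 13548 genes whose mean FPKM reached 0.5), in R 4.3.3. Alternatives were DESeq2 1.42.0, the tool of the study's methods, limma 3.58.1 on quantile-normalized log2(FPKM + 1), other filters and scalings, leaving out each library, and a correction for GC content and length. GC content was that of the longest coding transcript in GENCODE vM1 (NCBIM37), and length that implied by count and FPKM. Corrections for GC content alone and for length alone were added after the data were seen. Single values were compared by two-sided exact permutation tests. Library totals were 56332844 to 75995168 counts.

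The genes named are the 10 members, *Fndc1*, the myotube markers, up to 3 called genes per role by smallest p, the partners in the ratios and the 2 nearest profiles per member. *Calm2*, *Micu3*, *Scn4a*, *Ryr2*, *Pln*, *Sln*, *Strit1*, *Mrln*, *Jph2*, *Bin1*, *Asph*, *Tmem38a*, *Stim2*, *Srl* and the other cell type markers were named after their values were seen. Some genes of the list are counted in its totals but not reported here. The members, lists and tests were chosen with earlier results of these data known.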

Additional observations from a re-analysis of the deposited data

Results flagged for a closer look

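The *Atp2a1* to *Atp2a2* ratio of 1.166 in si-*Fndc1* replicate 5 lay far below the other 4 si-*Fndc1* libraries, which were at 1.302 to 1.348. The gap took up 0.747 of the range of the group. Of 28 groups of 5 libraries examined in this way 1 held such a value, and chance alone gives about 1 in 20. Without that library the difference in log2 ratio was -0.16 in place of -0.20. The two-sided exact permutation test gave p = 0.00794, the smallest that 5 against 4 libraries allow. Because the groups stayed separate, that p was fixed and says nothing about the weight of this library. The same library had the lowest level of *Atp2a1* (92.33 FPKM) and 9 of 10 members below the mean of its group.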

How the results depend on the processing

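*Casq2*, *Stac3* and *Atp2a2* kept their direction and their side of the threshold under all 22 alternatives, with log2 fold changes of -0.31 to -0.17, 0.01 to 0.13 and -0.14 to -0.02. With the GC and length correction the *Atp2a1* to *Atp2a2* difference was -0.084 and the *Ryr1* to *Ryr3* difference turned to 0.115. Among members and called genes, log2 fold changes that turned under it, without and with the replicate block, were *Ryr1* 0.008 and 0.003, *Jph1* 0.041 and 0.038, *Itpr1* 0.012 and 0.014, *Itpr3* 0.089 and 0.089, *Calm2* -0.110 and -0.107, and *Ttn* 0.080 and 0.081. *Ttn* was 0.070 with length alone, *Trdn* -0.037 with GC alone, and *Calr* -0.124 in limma. Of the uncalled genes named, *Jph2* (0.233), *Mrln* (-0.105), *Des* (0.113), *Tnnc1* (-0.045), *Myh8* (0.100) and *Acta2* (-0.077) turned as well.

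Members called higher numbered 1, against 2 in DESeq2 and in the genes with GC and length before correction, and 0 in limma, without the filter, with the GC and length correction, and with the replicate block, with or without that correction. Members called lower numbered 4, against 1 with GC and length, with that correction and the block, and with GC alone. Pathway genes called higher numbered 6, against 3 when scaled to myotube markers, 3 with the block, 9 with GC and length, 9 with length alone and 10 with GC alone, and those called lower 12, against 5 with correction and block. Of all tested genes 2338 were higher and 2325 lower, against 1398 and 1989 scaled to myotube markers, 1383 and 1135 with GC and length, 932 and 735 with the block as well, and 1455 and 1470 with GC alone. The causes were not tested.

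Leaving out 1 library gave 0 to 1 members higher, 3 to 6 lower, 3 to 6 pathway genes higher, 11 to 13 lower, 2022 to 2321 and 1978 to 2321 of all genes, and log2 ratio differences of -0.22 to -0.16 for *Atp2a1* to *Atp2a2*, 0.38 to 0.51 for *Casq1* to *Casq2* and -0.17 to -0.09 for *Ryr1* to *Ryr3*, which passed (p = 0.0476, exact permutation test) without si-*Fndc1* replicate 4.

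The replicate numbers did not pair the libraries (correlations of -0.05 to 0.06 between the same numbers). With the numbers as a replicate block, 1796 genes were higher and 1776 lower, and the ratio differences of -0.20 (*Atp2a1* to *Atp2a2*) and 0.45 (*Casq1* to *Casq2*) each had p = 0.0625, the smallest that exact permutation of 5 pairs allows.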
